A study of Sus scrofa with 26 samples.

Results

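The genes described here are 10 that encode enzymes of mitochondrial fatty acid oxidation (CPT1A, CPT1B, CPT2, ACADVL, ACADL, ACADM, HADHA, HADHB, ACAA2 and ETFDH), measured in the subcutaneous adipose tissue (SCAT) of pigs. They were taken as a list of names that was chosen with earlier results of these data known. A probe was assigned to a gene by the symbol, an older symbol, the accession or the description that the array annotation gave it. This gave 43 of the 60305 probes of the array, and all 43 were among the 44703 probes tested. The 10 genes stand among 9967 named genes with a tested probe. A further 2 probes were not assigned because their annotation did not name a single member: O10530, annotated as MYO5B with ACAA2 in its description (both genes are neighbours), and A_72_P055181, described only as carnitine palmitoyltransferase I.

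Each of 26 castrated male pigs was measured on its own one-colour array. At thermoneutrality (TN, 24 °C) there were 3 Creole pigs, 4 Large White (LW) pigs and 4 pigs of the LW by Creole cross (F1), and each breed had 5 pigs in heat stress (HS), which makes 11 arrays for TN and 15 for HS. The HS temperature is 30 °C in the sample labels and 32 °C, held for 5 days, in the text of the series. All pigs entered the climatic room at 11 weeks of age, and the TN pigs were slaughtered before the temperature was raised, so temperature, slaughter day and age cannot be told apart. Pigs shared litters and pens, per the methods, but the labels do not give the litter or pen of a pig. The level of a probe is its quantile-normalized log2 intensity, and levels of different probes cannot be set against each other. Each gene is described first by its leading probe, the tested probe with the highest mean level.

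Fatty acids are carried into the mitochondrial matrix as carnitine esters. There, repeated rounds of dehydrogenation, hydration, a second dehydrogenation and thiolysis shorten the acyl chain and release acetyl-CoA and reduced cofactors. White adipose tissue is known mainly for storing and releasing fatty acids, and it oxidizes only a part of them itself.

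The arrays were of even quality. Between 41314 and 46185 probes per array were well above background, no spot was saturated, and the correlation between any pair of arrays, across probes, was between 0.978 and 0.993. The defining markers of the labelled tissue were present: 11 of 12 adipocyte markers had a tested probe (PLIN4 had none), and all 11 were above background on every array. A marker score was computed for each array by centring each gene on its own mean log2 level and averaging over the genes of the list. The adipocyte score ranged from -0.12 to 0.21 in TN and from -0.28 to 0.40 in HS. In bulk tissue, fewer cells of a type and less RNA per cell cannot be told apart.

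Heat-stressed pigs had lower levels of most of the 10 mRNAs than thermoneutral pigs. With breed in the model, 7 of the 10 leading probes were lower in HS (ETFDH, CPT2, ACAA2, ACADM, ACADVL, ACADL and HADHB), by 0.23 to 0.42 on the log2 scale, and none was higher. Over all leading probes of named genes, 12.6% were called and 7.67% were called lower. Of the 43 probes, 23 were called, all of them lower, against 12.2% called and 7.02% called lower over all tested probes. A total of 27 of the 43 (62.8%) had an unadjusted p under 0.05, against 26.9% of all tested probes. Probes of the same gene are not separate measurements, and ACADM, HADHB and ACADL gave 7, 6 and 6 of the 23 calls. As the genes were chosen with earlier results known, these shares are descriptions. The median difference of the 10 leading probes was -0.26, and that of all tested probes was 0.0024. The members' median stayed below 0 under quantile, normexp, median and 75th percentile scaling (-0.26, -0.26, -0.39 and -0.33), while the median of all tested probes moved between -0.03 and 0.02. Since pigs shared litters and pens, they were not fully independent, and p-values measure only the spread between these animals.

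**Figure D1:**
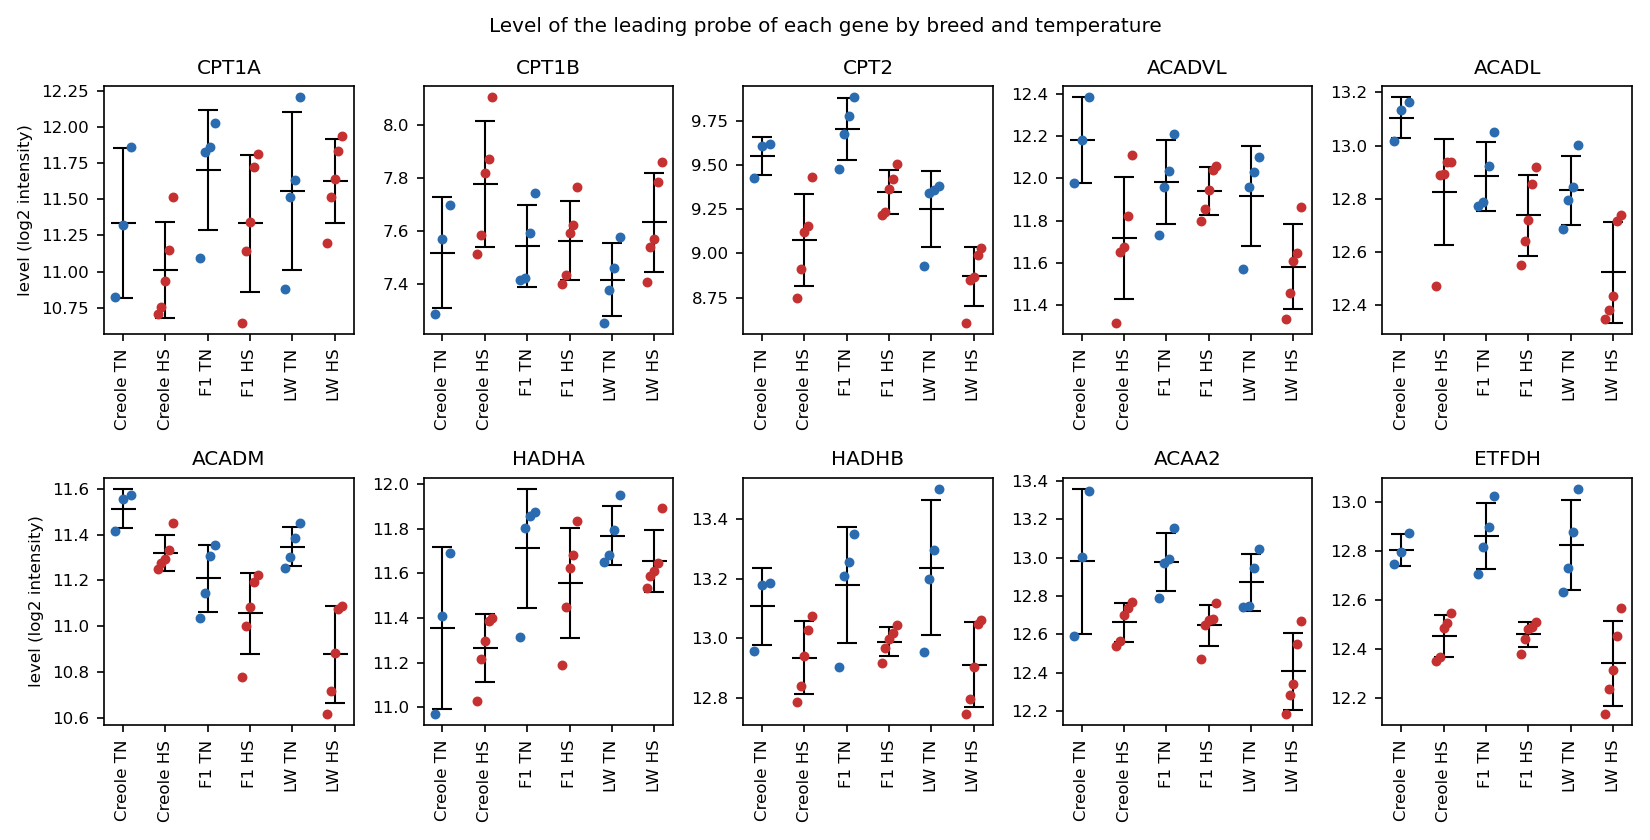
Level of the leading probe of each of the 10 genes (log2 intensity, one panel per gene, each with its own axis) on every array, by breed and temperature. Points are arrays (TN in blue, HS in red), the long bar is the group mean and the whiskers are 1 SD. For ETFDH every HS point is below every TN point.

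The first members control entry. CPT1A and CPT1B are the liver-type and muscle-type forms of the outer membrane enzyme that makes acylcarnitines, a step inhibited by malonyl-CoA. CPT2, on the inner membrane, turns acylcarnitines back into acyl-CoA. The leading CPT2 probe had a lowest, median and highest level of 8.93, 9.48 and 9.89 in TN, and of 8.61, 9.12 and 9.51 in HS. The groups overlapped, but every one of the 15 HS arrays lay below the TN mean of its own breed. The difference was -0.40 ± 0.07 (SE; adjusted p = 9.5e-04), so that the HS level was 75.7% of the TN level. The second CPT2 probe differed by -0.27 and fell just short of the threshold (adjusted p = 0.0522).

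CPT1A had the largest SD within TN and within HS among the leading probes (0.47 and 0.43). Its leading probe ran from 10.83 over a median of 11.64 to 12.21 in TN, and from 10.65 over 11.34 to 11.94 in HS, and these ranges overlapped over most of their length. The difference of -0.20 did not pass (adjusted p = 0.438), with an interval from -0.53 to 0.12, and only 9 of 15 HS arrays lay below their breed's TN mean. All 6 CPT1A probes had negative differences, from -0.20 to -0.06, and none was called. The interval of CPT1A holds values as large as the CPT2 difference. Both leading probes were also compared directly, as 1 of 7 pairs of probes or genes that were chosen with the single differences known. CPT2 minus CPT1A gave -0.20 (exact permutation test within breeds, two-sided, p = 0.260, and 0.260 after adjustment over the 7 pairs).

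CPT1B was the only member whose leading probe had a positive difference. Its level was 7.25, 7.46 and 7.74 (lowest, median, highest) in TN and 7.40, 7.59 and 8.10 in HS, with 11 of 15 HS arrays above their breed's TN mean. The difference of 0.16 did not pass (adjusted p = 0.155), and its interval was 0.01 to 0.31. The 5 CPT1B probes disagreed: A_72_P515198 and A_72_P232387 had differences of 0.16 and 0.20, and the other 3 had differences from -0.23 to -0.08, none of them called. Single TN arrays carried 2 of the negative values. For O14505 LW TN replicate 2 had 8.35 (TN median 6.01, HS median 6.08), and for A_72_P562224 Creole TN replicate 3 had 7.51 and F1 TN replicate 2 had 7.16 (TN median 5.81, HS median 5.86). In fits without these arrays, chosen after seeing the data, O14505 had 0.05 and A_72_P562224 had 0.05 (adjusted p = 0.653 and 0.766). With the mean of all 5 probes in place of the leading probe, the sign turned (-0.02, adjusted p = 0.865), and without the 3 arrays it was again positive (0.06, adjusted p = 0.502). The probes A_72_P273299 (-0.08) and A_72_P562224 (-0.23) are the same 60 bases, which are shown because 2 of the 5 probes thus measure 1 sequence:
CPT1B A_72_P273299 and A_72_P562224: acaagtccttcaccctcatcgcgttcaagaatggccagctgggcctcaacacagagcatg
The second spot of this sequence was above background on 18 of 26 arrays, and the 5 probes hold 4 different sequences. Another CPT1B probe, O14505, also names choline kinase beta, the product of the neighbouring gene CHKB, in its description. The difference between both forms, CPT1A minus CPT1B, was -0.36 between HS and TN and did not pass (exact permutation p = 0.0543, adjusted over the 7 pairs p = 0.0760).

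The acyl-CoA dehydrogenases catalyse the first step of each round, for very long (ACADVL), long (ACADL) and medium (ACADM) chains. ACADM had 11.04, 11.35 and 11.57 as lowest, median and highest level in TN and 10.62, 11.09 and 11.45 in HS. The groups overlapped, with 14 of 15 HS arrays below their breed's TN mean. Its leading probe differed by -0.28 ± 0.06 (SE; adjusted p = 0.0064), and 7 of its 8 probes were called lower, with differences from -0.35 to -0.19 over all 8. The uncalled probe, A_72_P653622, was also the least precise of them (-0.19, adjusted p = 0.211).

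ACADL had levels of 12.69, 12.92 and 13.16 in TN and of 12.35, 12.72 and 12.94 in HS, again with 14 of 15 HS arrays below the TN mean of their breed. The difference was -0.24 ± 0.06 (SE; adjusted p = 0.0127), and 6 of 7 probes were called lower. The exception was O13893 (-0.13, adjusted p = 0.0618). O13893 lies on the opposite strand to the ACADL probe A_72_P672943, over a stretch of 36 bases of which 32 match. Both are shown because the strand sets O13893 apart from the other probes of the gene, and the capitals mark the stretch that each shares, as its complement, with the other:
ACADL A_72_P672943: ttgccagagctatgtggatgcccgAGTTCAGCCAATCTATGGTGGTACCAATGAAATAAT
ACADL O13893: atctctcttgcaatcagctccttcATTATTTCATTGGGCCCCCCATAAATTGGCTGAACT
A_72_P672943 was called lower, with -0.20 (adjusted p = 0.0394).

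ACADVL rested on 1 probe, whose sequence is shown because no other probe measures this gene:
ACADVL O10385: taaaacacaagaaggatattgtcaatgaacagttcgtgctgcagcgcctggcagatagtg
Its level was 11.57, 12.03 and 12.38 in TN and 11.32, 11.80 and 12.11 in HS, and 13 of 15 HS arrays lay below their breed's TN mean. The difference of -0.27 ± 0.09 (SE) passed narrowly (adjusted p = 0.0404). The call did not hold, with adjusted p between 0.0503 and 0.0855, when any of 12 arrays was left out in turn: Creole HS replicate 1 or 5, Creole TN replicate 1 or 2, F1 HS replicate 2 or 5, F1 TN replicate 1, LW HS replicate 3 or 4, and LW TN replicate 2, 3 or 4. It was also lost with slide as a block (-0.28, adjusted p = 0.0507), without the filter on dim probes (adjusted p = 0.0535), without the breed term (adjusted p = 0.0714) and with the adipocyte score as a covariate (-0.26, adjusted p = 0.0778).

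The next steps fall to the trifunctional protein of the inner membrane, whose alpha subunit (HADHA) carries the hydratase and the long-chain hydroxyacyl-CoA dehydrogenase and whose beta subunit (HADHB) carries the thiolase. Their genes are neighbours in the annotation of the Sscrofa11.1 assembly. HADHB levels were 12.90, 13.20 and 13.50 in TN and 12.75, 12.97 and 13.08 in HS. The groups overlapped, and all 15 HS arrays lay below the TN mean of their breed. The leading probe differed by -0.23 ± 0.06 (SE; adjusted p = 0.0119), and all 6 HADHB probes were called lower, from -0.35 to -0.23. Those 6 probes are not 6 separate measurements, because 2 pairs of them overlap by 57 and 59 bases. One probe of the second pair, which names the gene by an older symbol, is shown as an example:
HADHB A_72_P223742: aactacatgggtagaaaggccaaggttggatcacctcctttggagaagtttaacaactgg
Its difference was -0.27 (adjusted p = 0.0029).

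HADHA, the partner subunit, passed with none of its 5 probes. Its level was 10.97, 11.69 and 11.95 in TN and 11.03, 11.54 and 11.89 in HS, so the ranges nearly coincided. The leading probe differed by -0.12 (adjusted p = 0.347, interval -0.29 to 0.04), and all 5 differences were negative, from -0.17 to -0.01. Under median scaling this probe was called lower (-0.24, adjusted p = 0.0411). The difference between the subunits was itself tested and did not pass: HADHB minus HADHA was -0.11 between HS and TN (exact permutation p = 0.112, adjusted over the 7 pairs p = 0.131). HADHB was thus called and HADHA was not, without a difference between them that passed.

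ACAA2, the medium-chain and short-chain thiolase of the matrix, was measured by 1 probe, shown for that reason:
ACAA2 A_72_P056271: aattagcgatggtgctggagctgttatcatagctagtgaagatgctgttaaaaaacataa
Its level was 12.59, 12.97 and 13.35 in TN and 12.18, 12.65 and 12.77 in HS. Of the 11 TN arrays, 3 lay inside the HS range (1 Creole and 2 LW pigs), and all 15 HS arrays were below the TN mean of their breed. The difference was -0.37 ± 0.07 (SE; adjusted p = 0.0013), which puts the HS level at 77.1% of the TN level.

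ETFDH, the oxidoreductase that passes electrons from the electron transfer flavoprotein to ubiquinone and so serves the acyl-CoA dehydrogenases above, showed the largest difference among the 10 leading probes. Its level was 12.63, 12.82 and 13.06 in TN and 12.13, 12.45 and 12.57 in HS. The groups did not overlap. The difference was -0.42 ± 0.05 (SE; adjusted p = 5.5e-05), so that the HS level was 74.9% of the TN level. The second ETFDH probe did not follow. O11806, which carries the symbol of the gene (the leading probe was named through its accession alone), is shown because both probes disagree:
ETFDH O11806: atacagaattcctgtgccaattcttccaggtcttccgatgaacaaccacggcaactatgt
It differed by -0.08 (adjusted p = 0.669), and the difference between both probes was larger than the spread between arrays (-0.33, exact permutation p = 0.0041, adjusted over the 7 pairs p = 0.0095). The mean of both probes differed by -0.25 (adjusted p = 0.0187).

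**Figure D2:**
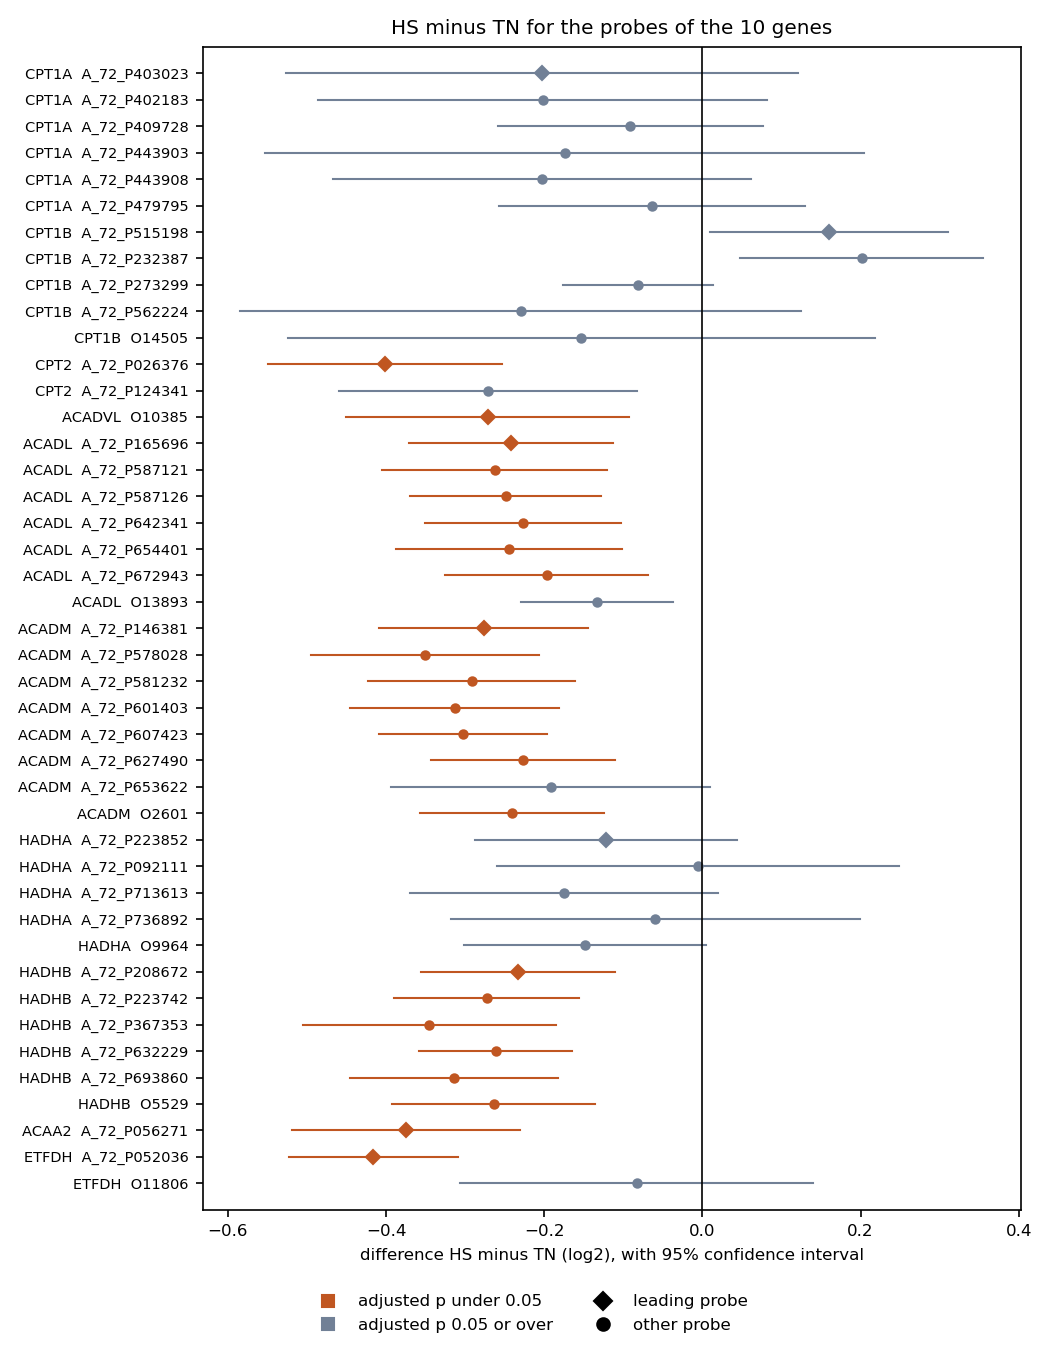
Difference HS minus TN (log2) for all 43 probes, grouped by gene in the order of the pathway, with 95% confidence intervals. Diamonds are leading probes and orange marks an adjusted p under 0.05; the 23 orange probes all lie below 0, and no probe of CPT1A, CPT1B or HADHA is among them.

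The direction was the same across slides for the called genes. All 5 slides held arrays of both temperatures, but not of the same breeds: slide 1 had 1 TN array, an F1 pig, and on slide 5 the TN arrays were LW and the HS arrays were Creole and F1. The mean of its breed over all slides was therefore subtracted from each array. After this, the leading probes of CPT2, ACADVL, ACADL, ACADM, HADHB, ACAA2 and ETFDH were lower in HS within each of the 5. The ETFDH difference ran from -0.45 to -0.38 over the slides and that of CPT2 from -0.61 to -0.28, whereas that of ACADVL ran from -0.70 to -0.04. CPT1A and HADHA were lower on 4 of 5 slides and CPT1B on 1 of 5. As a block, slide left 6 of the 10 members called.

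Several other expression measures moved with temperature in the same arrays, and their part in these results was not tested. Red blood cell markers (7 of 12 with a tested probe) had a score from 0.01 to 0.34 in TN and from -0.43 to 0.29 in HS, and of the 7, HBB (-0.85, adjusted p = 0.011) and EPB42 (-0.38, adjusted p = 0.0294) were called lower. The HBA genes had no tested probe. With this score as a covariate, 2 of the 10 members kept a call (ETFDH and CPT2) and the count over all probes fell from 5447 to 827. The differences of the 5 that lost it were still negative, at -0.27 for ACADVL, -0.25 for HADHB, -0.30 for ACAA2, -0.20 for ACADM and -0.18 for ACADL, against -0.27, -0.23, -0.37, -0.28 and -0.24 without the covariate (adjusted p from 0.0579 to 0.217). Markers of mitochondrial mass (12 of 16 with a tested probe) scored from -0.08 to 0.27 in TN and from -0.28 to 0.19 in HS. Of the 12, 4 were called lower, namely the citrate synthase gene CS (-0.33, adjusted p = 4.5e-04), the outer membrane channels VDAC1 (-0.34) and VDAC2 (-0.26), and the import channel TOMM40 (-0.23). With that score as a covariate, 3 members and 8 of the 43 probes were called. The differences of the 4 that lost the call were -0.24 for HADHB (adjusted p = 0.0577), -0.20 for ACADVL, -0.19 for ACADM and -0.13 for ACADL. Fibroblast and matrix markers (15 of 16 with a tested probe) scored from -0.97 to 0.28 in TN and from -0.31 to 0.58 in HS, with 5 of 15 called higher. With their score as a covariate, which was chosen after seeing the data, 14 of the 43 probes and 5 members were called, and ACADL had -0.18 and ACADVL -0.15. ETFDH and CPT2 kept their call in each of these 3 fits. Skeletal muscle markers (17 of 18 with a tested probe) spread widely, from -2.10 to 1.20 in TN and from -1.33 to 2.67 in HS, and none of the 17 was called. None of the 17 had a negative difference either, and their median was 0.50. MB, which encodes myoglobin, had no tested probe.

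The differences were then taken within each breed, from a model with 6 group means. ETFDH was called lower in F1 (-0.40, adjusted p = 0.0436) and in LW (-0.48, adjusted p = 0.0112), and ACADM in LW (-0.47, adjusted p = 0.0209). Both ETFDH calls were those of the leading probe. With the mean of both probes the difference was -0.35 in F1 (adjusted p = 0.158) and -0.22 in LW (adjusted p = 0.351), and the second probe alone had -0.29 in F1, 0.05 in LW and 0.01 in Creole pigs. Of the 43 probes, 1 was called in F1 (0.421% over all tested probes, 0.309% lower) and 5 in LW (1.5% over all, 1.09% lower), the latter being the leading ETFDH probe and 4 ACADM probes. None was called in Creole pigs (0.0716% over all, 0.0626% lower), where limma gave 15 probes with an unadjusted p under 0.05, against 15 in F1 and 21 in LW (34.9%, 34.9% and 48.8% of the 43, beside 11.1%, 16% and 16.7% of all tested probes). In LW, ETFDH levels were 12.63, 12.88, 13.06 and 12.73 in the 4 TN pigs and 12.45, 12.23, 12.31, 12.13 and 12.57 in the 5 HS pigs. In F1 they were 12.82, 12.90, 12.70 and 13.03 in TN and 12.44, 12.38, 12.48, 12.49 and 12.51 in HS. In Creole pigs they were 12.87, 12.75 and 12.79 in TN and 12.35, 12.49, 12.54, 12.37 and 12.51 in HS (difference -0.35, adjusted p = 0.170). Within none of the 3 breeds did the ETFDH levels of both temperatures overlap. ACADM levels in LW were 11.25, 11.39, 11.45 and 11.30 in TN and 11.08, 10.62, 10.89, 10.72 and 11.09 in HS, again without overlap.

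These calls within a breed rest on few pigs. The ETFDH call in F1 was lost when any of 13 arrays was left out, among them every F1 array except F1 TN replicate 3 (adjusted p up to 0.163), with the difference between -0.42 and -0.35 over these 13. The remaining ones were Creole HS replicates 1 and 4 and all Creole TN arrays. The leading ACADM call in LW was lost without LW HS replicate 2 or 4 or LW TN replicate 2 or 3 (adjusted p up to 0.0746). The count of 5 probes in LW rested on single pigs as well. It became 3 without LW HS replicate 2, LW HS replicate 4 or LW TN replicate 2. It became 2 in the absence of LW TN replicate 3 and 8 in that of Creole HS replicate 5. In Creole pigs 1 probe was called without Creole HS replicate 3. With slide as a block, 0 probes were called in F1 and 1 in LW, where ACADM had -0.44 (adjusted p = 0.0855). Without the filter on dim probes, 0 were called in F1. The red blood cell score as a covariate left 0 in F1 and 0 in LW. With it, ETFDH had -0.38 in F1 (adjusted p = 0.165) and -0.46 in LW (adjusted p = 0.0811), and ACADM had -0.39 in LW (adjusted p = 0.207). Other settings raised the counts, to 13 in F1 with median scaling and to 14 in LW with the skeletal muscle score as a covariate. Within LW the 17 skeletal muscle markers had a median difference of 1.68, none was called and 8 had an unadjusted p under 0.05 (limma), and their part in the LW values was not tested further.

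No difference between breeds in the response to heat was detected for any member. The interaction of breed and temperature was called for 0 of the 43 probes (0.00224% over all tested probes), the smallest adjusted p was 0.897, and limma gave 2 probes with an unadjusted p under 0.05 (4.65%, beside 5.23% of all tested probes). The leading probes of CPT2, HADHB, ACAA2 and ETFDH were below the TN mean on every HS array of all 3 breeds. For ACADVL, ACADL and ACADM this was the case in 2 breeds. For ACADVL the difference was -0.47 in Creole pigs, -0.04 in F1 pigs and -0.33 in LW pigs (interaction adjusted p = 0.897), and for CPT1A it was -0.33, -0.37 and 0.07 in the same order (interaction adjusted p = 0.919).

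**Figure D3:**
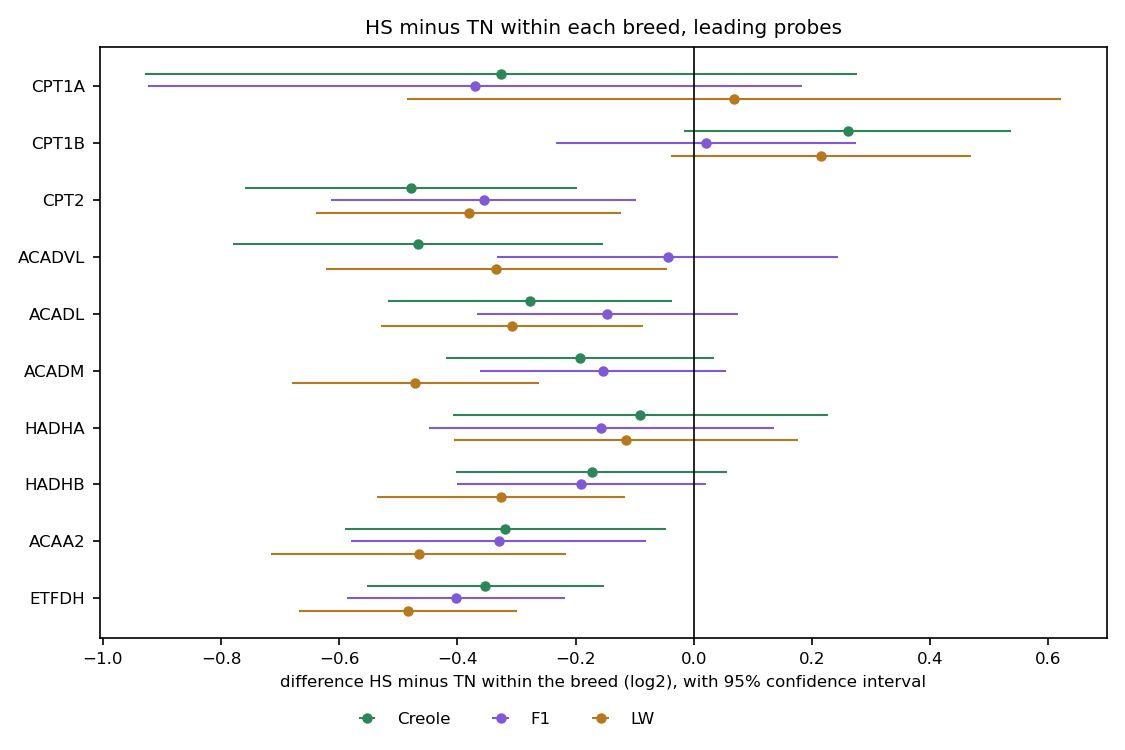
Difference HS minus TN (log2) of the leading probe of each gene within Creole, F1 and LW pigs, with 95% confidence intervals from the model with 6 group means. For ETFDH, CPT2 and ACAA2 the 3 breeds lie close together below 0, and for CPT1A the LW value lies above 0 with an interval that spans 0.

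Some of the enzymes were called between LW and Creole pigs, in opposite directions. With temperature in the model, LW pigs had lower levels of ACADM and ACADL and a higher level of HADHA than Creole pigs. Of the 43 probes, 16 were called (14.3% over all tested probes), of which 13 were lower in LW (7.42% over all) and 3 higher (6.89% over all). The 13 lower probes were 7 of the 8 for ACADM and 6 of the 7 for ACADL, and the 3 higher ones were all for HADHA. The number called higher was thus close to the share over all tested probes. Of the 3 higher probes, 2 overlap by 57 bases. Among leading probes, 3 of 10 were called (15.3% over all named genes), 2 of them lower (8.6% over all named genes) and 1 higher (6.65%).

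ACADM levels were 11.25, 11.37 and 11.57 (lowest, median, highest) in the 8 Creole pigs and 10.62, 11.09 and 11.45 in the 9 LW pigs. The difference was -0.33 ± 0.08 (SE; adjusted p = 0.0076), and ACADM was lower in LW on each of the 4 slides that held both breeds, once the mean of its temperature over all slides was subtracted from each array. On slide 5, where both LW arrays were TN and the only Creole array was HS, breed and temperature cannot be told apart, and the levels before subtraction were higher in LW (11.45 and 11.30, beside 11.25). ACADL levels were 12.47, 12.94 and 13.16 in Creole and 12.35, 12.72 and 13.00 in LW, a difference of -0.29 ± 0.08 (SE; adjusted p = 0.0138) that had the same sign, after the same subtraction, on 3 of the 4 slides (slide 5 being the other). Both genes overlapped between the breeds. O13893, the probe on the opposite strand, was again the 1 ACADL probe without a call (-0.16, adjusted p = 0.0552).

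HADHA levels of the leading probe were 10.97, 11.34 and 11.69 in Creole and 11.54, 11.65 and 11.95 in LW. The ranges overlapped, and the LW median lay inside the Creole range. The difference was 0.40 ± 0.10 (SE; adjusted p = 0.0092), higher in LW on 4 of 4 slides after that subtraction. The 5 HADHA probes fell into 2 sizes. A_72_P092111 and A_72_P736892 differed by 0.72 (adjusted p = 0.0031) and 0.76 (adjusted p = 0.0024), while the other 3 differed by 0.22 to 0.40, of which only the leading probe was called. Those 2 probes overlap by 57 bases with 1 mismatch, C21G, counted from the 5′ end of A_72_P092111. They are shown with the leading probe because the size of the breed difference depended on the probe, and the capital marks the base that differs:
HADHA A_72_P092111: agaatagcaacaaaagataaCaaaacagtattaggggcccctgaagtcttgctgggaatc
HADHA A_72_P736892: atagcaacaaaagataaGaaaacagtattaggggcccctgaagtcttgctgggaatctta
HADHA A_72_P223852: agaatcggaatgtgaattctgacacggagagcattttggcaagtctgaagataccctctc
The mean of the overlapping pair minus the mean of the other 3 probes differed by 0.43 between LW and Creole, more than the spread between arrays (exact permutation test within temperatures, p = 0.0058, adjusted over the 7 pairs p = 0.0101). A sequence difference between breeds under these probes was not tested.

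The opposite directions of HADHA and ACADM were tested directly, and HADHA was also set against HADHB. HADHA minus ACADM differed by 0.73 between LW and Creole (exact permutation p = 1.1e-04, the smallest that 8820 relabelings can give, adjusted over the 7 pairs p = 7.9e-04). HADHA minus HADHB differed by 0.36 (exact permutation p = 0.0012, adjusted p = 0.0044), since HADHB, the partner subunit, had a breed difference of 0.04 (adjusted p = 0.754). Both pairs were chosen with the single breed differences known, so their p-values only describe the contrast against the spread between pigs. CPT1A had a positive difference of 0.45 that did not pass (adjusted p = 0.118, interval 0.05 to 0.85), and ETFDH, the member with the largest temperature difference, had -0.06 (adjusted p = 0.591). In the same pigs 3 of 11 adipocyte markers were called lower in LW (10 of 11 had a negative difference, with a median of -0.14), 5 of 12 mitochondrial mass markers were called lower and 6 of 15 fibroblast and matrix markers higher, and their part in these values was not tested. None of 17 skeletal muscle markers was called, and 16 of them had a negative difference (median -0.83). With the muscle score as a covariate the 3 members kept their calls, with -0.24 for ACADL (adjusted p = 0.0478), -0.32 for ACADM and 0.39 for HADHA.

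**Figure D4:**
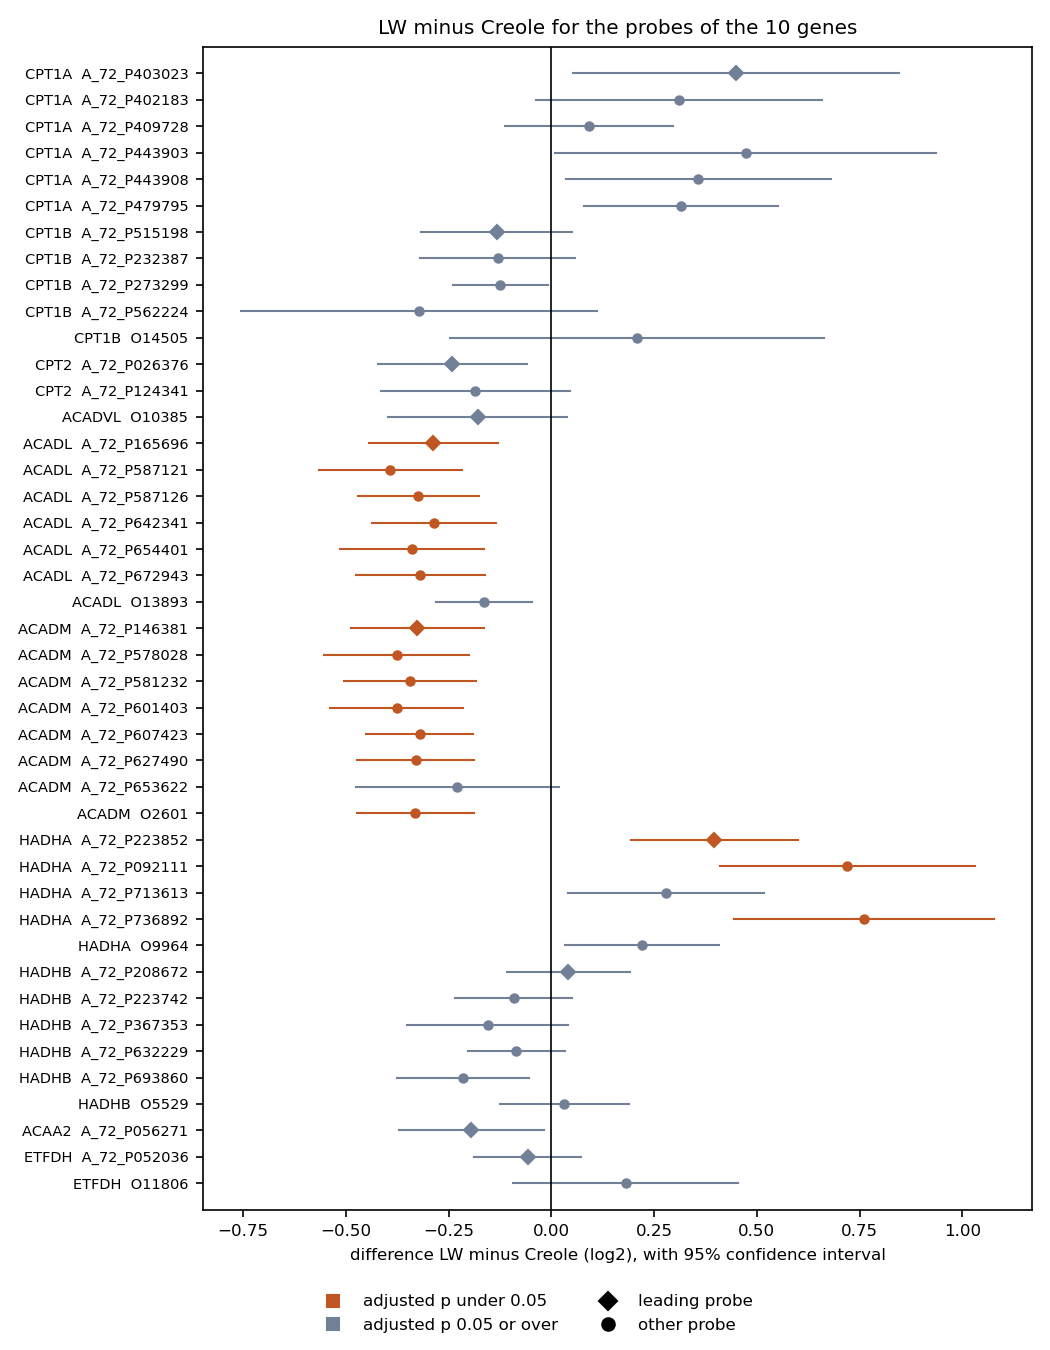
Difference LW minus Creole (log2) for all 43 probes, grouped by gene, with 95% confidence intervals. Diamonds are leading probes and orange marks an adjusted p under 0.05; ACADL and ACADM lie below 0 and HADHA above 0, with the overlapping HADHA probes at 0.72 and 0.76.

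In the F1 cross, both CPT2 probes were higher than in LW and some ACADM probes were lower than in Creole pigs. The breed contrasts share pigs. F1 minus Creole was called for 2 of the 43 probes (0.262% over all tested probes, 0.132% lower), both ACADM probes and both lower in F1, with -0.43 (adjusted p = 0.0256) and -0.29 (adjusted p = 0.0477). This count was 0 with slide as a block. It was 0 without Creole HS replicate 1 or 2, F1 HS replicate 2 or F1 TN replicate 1. It was 1 without Creole HS replicate 3, 4 or 5, Creole TN replicate 3, F1 HS replicate 1 or 3, F1 TN replicate 2 or 4, LW HS replicate 1, 3 or 5, or any of the 4 LW TN arrays. F1 minus LW was called for 5 probes (4.22% over all). Of these 4 were higher in F1 (2.46% higher over all), namely both CPT2 probes, with 0.47 (adjusted p = 0.0073) and 0.51 (adjusted p = 0.0131), and 2 ACADL probes (0.32 and 0.26). The HADHA probe A_72_P092111 was lower in F1 (-0.54, adjusted p = 0.0388; 1.76% lower over all). CPT2 levels were 9.22, 9.48 and 9.89 in the 9 F1 pigs, 8.61, 8.99 and 9.38 in the 9 LW pigs and 8.75, 9.29 and 9.62 in the 8 Creole pigs. The F1 median thus lay above both parental medians, and F1 minus Creole did not pass (0.23, adjusted p = 0.361). The count of 5 was 2 with slide as a block. It was 2 without F1 HS replicate 4 or 5, F1 TN replicate 1, LW HS replicate 2 or 3, or LW TN replicate 1. It was 3 without F1 HS replicate 1, F1 TN replicate 3 or 4, LW HS replicate 4, or LW TN replicate 2, 3 or 4. The leading CPT2 probe kept its call without any single array. Among the markers in F1 minus LW, 2 of 12 for mitochondrial mass and 1 of 11 for adipocytes were called higher, 14 of 15 for fibroblasts and matrix had a negative difference with none called, and 16 of 17 for skeletal muscle had a positive one (median 0.34) with none called. With the muscle score as a covariate CPT2 had 0.43 (adjusted p = 0.0042), and the part of the other markers was not tested.

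The members also varied together within groups, to different degrees. After subtraction of the 6 group means, the residuals of ACADM and ACADL correlated at 0.75 over the 26 arrays, those of HADHB and ETFDH at 0.69 and those of CPT1A and HADHA at 0.68. The lowest correlation of any pair was that of ACADL and HADHA (-0.21). Arrays share hybridisation and RNA quality, so these values are descriptions. ETFDH followed the mean of the other members most closely (0.78), then HADHB (0.71) and ACAA2 (0.64), whereas CPT1B did not follow it (0.06). The residuals of CPT2 and ACADL correlated with the skeletal muscle score at 0.70 and 0.57. CPT1A and HADHA correlated with the mitochondrial mass score at -0.59 and -0.55, and ACADL at 0.60. With the muscle score as a covariate no call among the 10 members changed for HS minus TN.

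Outside these lists, the 5 genes of 9891 whose residuals were most like the mean residual of the members were PLIN2 (0.83), RXRG (0.76), DDHD1 (0.76), SPG20 (0.75) and FBP1 (0.75), over 26 arrays. PLIN2, which encodes a lipid droplet coat protein, fell by 0.85 in HS (adjusted p = 0.0022), and the other 4 did not pass, with differences from -0.42 to -0.06.

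The remaining enzymes of the pathway shared the direction in part. Of 23 further enzymes and carriers of mitochondrial oxidation, 21 had a tested probe, 6 were called lower in HS (28.6%) and none higher, with a median of -0.15. For this and the next lists the share over all leading probes of named genes is the 12.6% called and 7.67% called lower given above. The largest differences among them were those of ECI1 (-0.58, adjusted p = 7.2e-04), an enoyl-CoA isomerase, and DECR1 (-0.42, adjusted p = 4.1e-04), the dienoyl-CoA reductase, both needed for unsaturated chains, and of ACAD9 (-0.32, adjusted p = 1.8e-04), an acyl-CoA dehydrogenase that also takes part in building complex I. ETFA, the alpha subunit of the flavoprotein that feeds ETFDH, fell by 0.30 (adjusted p = 0.0049) with all 9 of its probes called. ACADS, the short-chain acyl-CoA dehydrogenase, fell by 0.23 (adjusted p = 0.0049). ETFB, the other subunit of the flavoprotein, had -0.13 (adjusted p = 0.0873), the carnitine-acylcarnitine carrier SLC25A20 had -0.21 (adjusted p = 0.141), the short-chain hydratase ECHS1 had -0.14 (adjusted p = 0.386) and the hydroxyacyl-CoA dehydrogenase HADH had -0.07 (adjusted p = 0.503). None of these 4 passed, although 3 of the 4 ECHS1 probes, not the leading one, were called.

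The genes that set the level of malonyl-CoA, the inhibitor of the CPT1 enzymes, showed no call. Of 10 listed, 8 had a tested probe and 0 were called by limma, 2 had an unadjusted p under 0.05, and the median was -0.13. ACACB, the carboxylase that makes malonyl-CoA at the mitochondrion, had 0.10 (adjusted p = 0.384), and MLYCD, the decarboxylase that removes it, had -0.18 (adjusted p = 0.131). In carnitine handling 1 of 5 tested genes (20%) was called, ALDH9A1 (-0.21, adjusted p = 0.0215), which takes part in carnitine synthesis, and the median was -0.13.

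Peroxisomes shorten very long chains before mitochondria receive them. Of 12 tested peroxisomal genes, 3 were called lower (25%), with a median of -0.10. Among them were ABCD3 (-0.56, adjusted p = 6.9e-04), a transporter of the peroxisomal membrane, and HSD17B4 (-0.20, adjusted p = 0.0387), the multifunctional enzyme of the peroxisomal round. Of 4 tested ketone body genes 1 (25%) was called, ACAT2 (-0.60, adjusted p = 0.0039), a cytosolic thiolase, and the median was -0.03.

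Of 16 tested transcriptional regulators and their known targets, 2 were called lower (12.5%, beside 12.6% over all leading probes of named genes) and the median was -0.09. ESRRG, an estrogen-related receptor, fell by 0.47 (adjusted p = 0.0477) and TFAM, the mitochondrial transcription factor, fell by 0.13 (adjusted p = 0.0271). PPARA, the nuclear receptor best known for driving fatty acid oxidation genes, had 0.13 (adjusted p = 0.306), and PPARGC1A, its coactivator, had -0.13 (adjusted p = 0.327). The median of every one of these 6 lists was below 0 under all 4 scalings, and no gene of them was called higher by its leading probe.

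**Figure D5:**
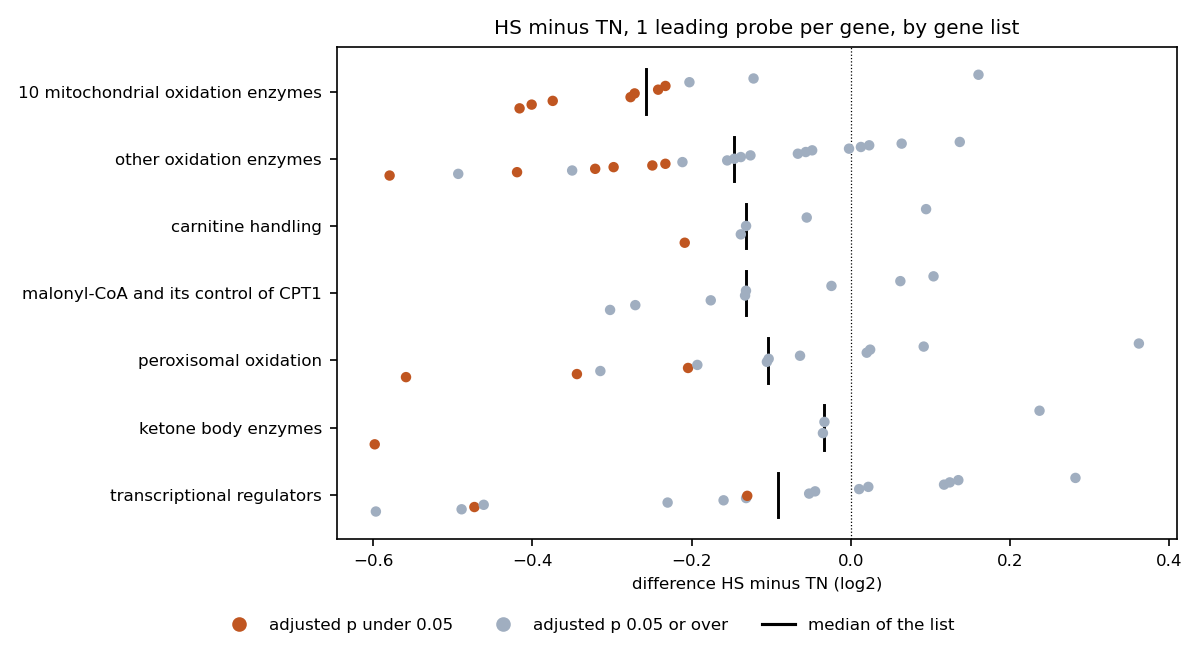
Difference HS minus TN (log2) of 1 leading probe per gene for the 10 enzymes and 6 lists of related genes; orange marks an adjusted p under 0.05 and the black bar the median of a list. The median is -0.26 for the 10 enzymes, -0.15 for the other oxidation enzymes and -0.03 for the ketone body enzymes.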

How the data were processed

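RNA from SCAT was labelled with Cy3 and hybridised to one-colour porcine arrays. Each scanner file that the authors deposited gives an unnormalized median pixel intensity per spot, with the mean and background intensity, a processed intensity and flags, from Agilent Feature Extraction 10.10.1.1 per the submitters' processing notes. Their deposited matrix gives log2 quantile-normalized intensity for 44104 probes and served as an alternative.

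The median intensities were quantile-normalized and transformed to log2, non-uniform spots were set to missing, and a probe was kept if at least 8 arrays showed it well above background. Models were fitted by lmFit and eBayes with an intensity trend, with p-values adjusted over all 44703 probes (Benjamini-Hochberg, threshold 0.05). Temperature was fitted with breed, breed with temperature, and within-breed differences and the interaction from 6 group means. The random effects of the authors' model (pen, slaughter day, parents) are not in the labels and were left out. Differences between 7 pairs were tested by exact two-sided permutation within strata. The script was tested on simulated data. Software was limma 3.58.1 (R 4.3.3), and tables were read by data.table version 1.17.8.

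Probes were named by accession, symbol or synonym through a RefSeq table of Sscrofa11.1. Members were all given with every probe; of the related lists, up to 3 called genes per direction and a fixed set were named, and likeness took the 5 genes with the highest residual correlation. Marker lists covered adipocyte, skeletal muscle, red blood cell, fibroblast and matrix, macrophage, endothelial, liver, T cell, keratinocyte and mitochondrial mass. The members and lists were chosen with earlier results of these data known. Alternatives varied background correction, scaling, filter, probe choice, slide block, breed term, trend, array weights, marker scores and single arrays. Replicates were numbered in accession order, and probe sequences are those of the array annotation. A search for promoter motifs was not run, and some genes of the lists are counted but not reported by name here.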

Additional observations from a re-analysis of the deposited data

Results flagged for a closer look

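Among the leading probes, 50 groups of 4 or 5 arrays were tested for a sample far from the others (Dixon's ratio of the gap to the range), and 3 passed, where chance gives about 1 in 20. For ACADL, Creole HS replicate 5 had a level of 12.47 with the nearest other array of its group at 12.89 (ratio 0.894). For CPT2, LW TN replicate 4 had 8.93 with the nearest at 9.34 (ratio 0.910). For HADHA, F1 TN replicate 3 had 11.32 with the nearest at 11.80 (ratio 0.869). Without these arrays the calls of the 3 leading probes for HS minus TN were as in the full data.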

How the results depend on the processing

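Of the 10 leading probes, ETFDH and CPT2 kept their call for HS minus TN under every alternative run and without any single array, except that ETFDH had -0.21 (adjusted p = 0.0899) with the mean of its probes and 3 arrays left out. The count over all probes (5447) was 3531 without the breed term, 1862 with the fibroblast and matrix score, 1312 with the mitochondrial mass score and 827 with the red blood cell score. In the same order, the count of member probes (23) was 13, 14, 8 and 6. The count of members (7) was 4 without the breed term, 3 with the mitochondrial mass score and 2 with the red blood cell score, while the differences of the members that lost the call stayed negative (without the breed term -0.27 for ACADVL, -0.26 for ACADM and -0.23 for ACADL). CPT1B turned to -0.021 with the mean of its probes. Within F1, the count of 1 probe was 13 with median scaling, and 0 without the filter, with the red blood cell score or with slide as a block. Within LW, the count of 5 was 8 with array weights, 14 with the skeletal muscle score, 0 with the red blood cell score and 1 with slide as a block. LW minus Creole gave 5 members in place of 3 with median scaling. F1 minus Creole gave 1 probe in place of 2 with median scaling, without the filter or with the muscle score, and 0 with slide as a block, and 1 member in place of 0 with the mean of all probes. F1 minus LW gave 3 probes in place of 5 without the filter and 2 with slide as a block. The cause of these shifts was not tested. Leaving out single arrays gave 3973 to 6562 probes, 21 to 25 member probes and 6 to 7 members for HS minus TN, 0 to 1 member probes within Creole, 0 to 1 within F1 and 2 to 8 within LW, 16 to 18 member probes and 3 to 4 members for LW minus Creole, 0 to 3 member probes for F1 minus Creole and 2 to 7 for F1 minus LW. TN and HS pigs were different animals, and littermates could not be matched because the labels do not give the litter.

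The number of arrays limits precision, most of all within Creole, with 3 TN pigs. Some probes were dim: CPT1A A_72_P409728 was above background on 11 arrays, CPT1B A_72_P562224 on 18, HADHB O5529 on 21 and CPT1A A_72_P479795 on 22 of 26. Litter, pen and slaughter day could not be modelled, and probes were not aligned to a genome.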

Other observations

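Marker scores not described above were compared between the temperatures. From HS minus TN, with breed in the model, the score differed by 0.15 for macrophage markers (0 of 12 called), by -0.04 for endothelial markers (1 of 8 called lower), by 0.02 for T cell markers (0 of 7 called) and by 0.09 for liver markers (0 of 7 called). Keratinocyte markers, of which 4 had a tested probe, differed by 0.84 with none called, and their score ran from -1.33 to 2.53 in TN and from -1.56 to 3.39 in HS. Among adipocyte markers, ADIPOQ rose by 0.16 in HS (adjusted p = 0.0384) and CIDEA, a lipid droplet protein that is also abundant in brown fat, fell by 0.43 (adjusted p = 2.3e-04).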
